A study of Mus musculus with 10 samples.

Results

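The lysosomal gene set described here held 38 mouse genes, chosen by name for their roles in the lysosome. It comprised 3 transcription factors of lysosomal biogenesis, 6 lysosomal membrane proteins, 7 cathepsins, 7 other hydrolases or their cofactors, and 15 subunits of the vacuolar proton pump (V-ATPase), namely 6 of the membrane sector V0, 7 of the catalytic sector V1 and 2 accessory subunits. Accessibility was read from the 97385 peaks of the deposited ATAC-seq count table, a table of open chromatin regions. A peak belonged to a gene if it lay in the gene body or within 10 kb of it, and it was a promoter peak if it lay within 1 kb of one of the gene's annotated transcript starts. This gave 191 peaks, 66 of them promoter peaks and 125 others, and 190 of the 191 passed the filter on low counts, as did 97109 peaks of the whole table. Every gene had at least 1 promoter peak, and 47 of the 191 peaks lay nearest to the start of another protein-coding gene.

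Regulatory T cells (Tregs) of 10-day-old mice were sorted from the spleen and from the lung as CD4+Foxp3-YFP+TCRb+ cells. Vps34-deficient cells came from Foxp3Cre Pik3c3 fl/fl mice, in which the Cre recombinase is driven by Foxp3 and removes the lipid kinase Vps34 from Foxp3-expressing cells, and controls were Foxp3Cre mice with Pik3c3 +/+ or +/fl, so that every group carried the Cre and some controls had 1 floxed copy. Spleen gave 2 control and 4 deficient libraries and lung gave 2 of each; in the study's methods the 2 spleen numbers are swapped, and the sample labels, which match the columns of the table, were followed. The labels number the libraries without naming the mice, so p-values measure the spread between these libraries. Between 9405823 and 22439699 counts fell in peaks per library, with a median of 32 to 72 counts per peak. The 6 peaks of Pik3c3 carried 0 calls in the genotype effects, and a small deletion need not change counts over whole peaks. Promoter peaks of 7 of 7 Treg and T cell markers, Foxp3 among them, were present in every library. Counts on chromosome Y were 56.9 to 67.6 CPM (counts scaled to the library total, as edgeR computes them) in 5 libraries and 7.03 to 21.4 CPM in the other 5, with both kinds in each group, so the libraries of a group were not all made from the same cells.

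Lysosomes are acidified by the V-ATPase, which uses ATP hydrolysed in its V1 sector to drive protons through V0, and their hydrolases work at that low pH. The helix-loop-helix factors Tfeb, Tfe3 and Mitf bind an E-box in the promoters of many lysosomal genes and induce them when nutrients are scarce. Vps34 makes the phosphoinositide that marks early endosomes and autophagosomes, whose cargo is delivered to lysosomes.

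The E-box letters were frequent near the starts of these genes. RefSeq promoter windows (GRCm38.p6, 250 bases before to 50 after a gene start) matched 32 of the 38 genes, with 41 windows. The motif TCACGTGA, a palindrome that reads the same on both strands and contains CACGTG, was in 7 of the 41 windows (17.1%), against 0.974% of all 32851 windows. The shorter CACGTG was in 26.8% of them, against 7.15% of all. The 7 genes with the longer form were Mcoln1 among membrane proteins, Ctsa and Ctsd among cathepsins, Gla among hydrolases, and Atp6v0d1, Atp6v0e and Atp6v1a of the V-ATPase. The 30 bases around the motif are shown for each in the gene's direction, with TCACGTGA in capitals, since these are the letters through which the 3 factors are known to act; Ctsa had 2 copies within the stretch and Gla had a second copy outside it.
Mcoln1 (chr8:3500462-3500491, + strand): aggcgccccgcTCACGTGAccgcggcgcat
Ctsa (chr2:164833758-164833787, + strand): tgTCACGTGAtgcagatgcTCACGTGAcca
Ctsd (chr7:142387908-142387937, - strand): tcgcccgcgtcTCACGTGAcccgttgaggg
Gla (chrX:134601182-134601211, - strand): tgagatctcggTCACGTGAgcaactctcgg
Atp6v0d1 (chr8:105566050-105566079, - strand): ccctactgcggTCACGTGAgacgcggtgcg
Atp6v0e (chr17:26676387-26676416, + strand): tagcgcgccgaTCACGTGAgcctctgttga
Atp6v1a (chr16:44139373-44139402, - strand): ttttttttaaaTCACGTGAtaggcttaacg
Over the deposited peaks themselves, TCACGTGA was in 11 of the 66 promoter peaks of the set (16.7%) and in 1.67% of all promoter peaks. A match to the letters is a description of the sequence and was not tested as a binding site.

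Each gene was next described by its leading promoter peak, the promoter peak with the highest mean count. Per kilobase of peak, all 66 promoter peaks of the set had a median of 27.9 CPM, against 19.5 CPM for all promoter peaks of the table. The 38 leading peaks, chosen for their counts, had a median of 40.8 CPM. Ctsc, the dipeptidyl peptidase that activates granule proteases, was highest at 216 CPM per kb. The cholesterol carriers Npc2 (174 CPM per kb) and Npc1 (142 CPM per kb) followed, and Mitf had 137 CPM per kb. At the other end stood Hexa at 12.2, the antigen-processing protease Ctss at 8.47 and the tetraspanin Cd63 at 6.64 CPM per kb. The leading Cd63 peak lay by an annotated internal start, centred 9437 bases into the gene. V-ATPase promoters lay between 13.3 CPM per kb at Atp6v0e and 117 CPM per kb at Atp6v0b.

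The first comparison asked whether loss of Vps34 changed accessibility at these genes. Peaks were called at an adjusted p below 0.05 with a log2 fold change beyond 0.5, as the study did, in edgeR fits over the whole table. Averaged over both tissues, 3 of the 190 tested peaks were higher in deficient cells and 6 were lower. Over the whole table the shares called were 3.52% higher and 4.06% lower, so the set's counts are near the background. Among the 66 promoter peaks 1 was called, against 3.5% of all promoter peaks called in either direction.

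None of the 38 leading promoter peaks passed both limits in that average, with edgeR or DESeq2, and 6 had an unadjusted p below 0.05 in edgeR. Their median log2 fold change was -0.06, as over all 66 promoter peaks of the set, with -0.03 for all promoter peaks of the table, and 29 of 38 were below 0, where 43.8% of all promoter peaks were above 0. That count was 25 with scaling to library size alone and 26 with median-of-ratios scaling. The leading peak of Tfeb, the factor that induces lysosomal genes, had 42.8 and 52.2 CPM in spleen control and 37.7, 39.6, 41.9 and 39.3 CPM in spleen deficient libraries. In lung it had 36.6 and 42.8 CPM in control and 32.9 and 32.2 CPM in deficient libraries. Deficient libraries were below controls within each tissue, with a log2 fold change of -0.27 ± 0.08 (SE; adjusted p = 0.035), under the fold limit. Tfe3 (-0.01 ± 0.11) and Mitf (-0.17 ± 0.06, adjusted p = 0.092) had no adjusted p below 0.05 at their leading peaks.

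Among hydrolases, 2 leading peaks had an adjusted p below 0.05 in the average. Lipa, the acid lipase that frees cholesterol from its esters, had 57.2 and 59.7 CPM in spleen control and 48.7 to 53.0 CPM in spleen deficient libraries (-0.34 ± 0.08 over both tissues, adjusted p = 0.010). In lung it had 57.7 and 60.8 CPM in control and 35.8 and 47.8 CPM in deficient libraries, where it was called lower (-0.51 ± 0.12, adjusted p = 0.014). That value sits at the fold limit, and it was under it with library-size (-0.49), median-of-ratios (-0.47) and DESeq2 (-0.48) fits. The lung call was also lost without lung deficient replicate 1 (-0.23), lung control replicate 1 (-0.43) or replicate 2 (-0.44), or spleen control replicate 1 (-0.47) or replicate 2 (-0.43).

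Psap, the precursor of the saposins that help hydrolases reach sphingolipids, had 2 promoter peaks that went opposite ways. The leading peak at the gene start had 26.7 and 29.5 CPM in spleen control and 20.5 to 24.1 CPM in spleen deficient libraries (-0.32 ± 0.10 averaged, adjusted p = 0.038, under the fold limit). The other, at chr10:60284618-60285385 (GRCm38) in an intron and 157 bases from an annotated internal start, had 3.53 and 3.43 CPM in spleen control and 8.28, 7.52, 6.17 and 6.53 CPM in spleen deficient libraries. In lung it had 2.62 and 3.39 CPM in control and 7.65 and 5.79 CPM in deficient libraries. All 6 deficient libraries lay above all 4 controls, and the peak was called higher on average (1.07 ± 0.18, adjusted p = 0.00044), in spleen (1.02 ± 0.24, adjusted p = 0.024) and in lung (1.15 ± 0.29, adjusted p = 0.020). The average held without each library in turn. The spleen call was lost without spleen control replicate 1 (adjusted p = 0.28) or replicate 2 (0.21) and without spleen deficient replicate 1 (0.084) or replicate 2 (0.084), and the lung call without lung control replicate 2 (0.056) or lung deficient replicate 1 (0.12).

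**Figure D1:**
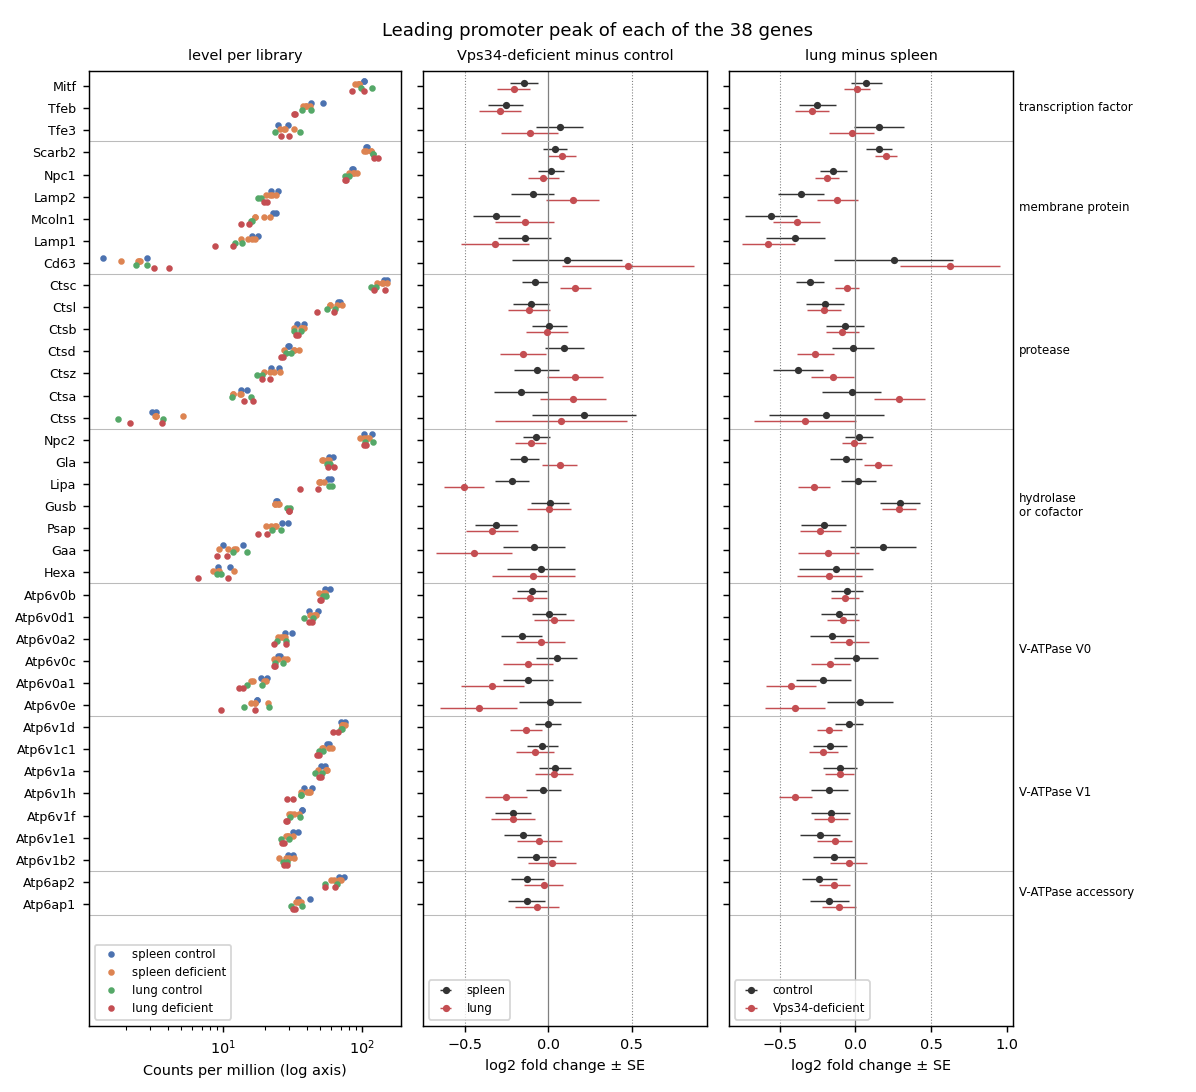
Leading promoter peak of each gene, grouped by role: CPM in each library on a log axis (left), log2 fold change with SE for Vps34-deficient minus control in spleen and lung (middle) and for lung minus spleen in control and deficient cells (right). Most fold changes lie within the dotted lines at 0.5; Lipa in lung (-0.51), Mcoln1 in control (-0.56) and Lamp1 in deficient cells (-0.57) are the leading peaks that were called.

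Of the 60 V-ATPase peaks, all tested, 0 carried a genotype call in the average or in either tissue, against 3.52% higher and 4.06% lower in the average over the whole table. In edgeR 4 of them had an unadjusted p below 0.05 in the average, 2 in spleen and 3 in lung. DESeq2 called 1 in the average, 0 in spleen and 0 in lung; the 1 was a peak nearest to Atp6v1fnb beyond Atp6v1f, with 0.54 ± 0.18 (adjusted p = 0.036) in DESeq2 and 0.53 ± 0.18 (adjusted p = 0.064) in edgeR. The leading peaks of V0 had a median log2 fold change of -0.11, with 5 of 6 below 0, those of V1 -0.06, with 6 of 7 below 0, and the 2 accessory subunits Atp6ap1 and Atp6ap2 had -0.11 and -0.09. These counts of genes below 0 were the same under library-size, median-of-ratios and DESeq2 scaling. The 10 leading peaks that held TCACGTGA had a median of -0.06 and the 28 without it -0.07.

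Over the average and both tissues, 11 peaks of 8 genes were called, 8 lower and 3 higher, and 2 of them were promoter peaks of the gene. Counting starts of any gene, 8 of the 11 (72.7%) lay outside promoters, against 86.8% of all peaks called in a genotype effect. Of the tested peaks, 53.7% of the set and 75.4% of the table lay outside promoters. Called peaks had the higher share outside promoters in both, though in the set this rests on 11 peaks. Cathepsins, with 38 of the 190 tested peaks, gave 5 of the 8 lower peaks, 4 in the average (background 4.06%) and 3 in lung (background 3.74%). The 4 that held TGANTCA, and the lower Scarb2 peak, are shown over 200 bases each on the + strand of GRCm38; the other Ctsb peak is not shown. They were chosen because 4 of the 8 lower peaks and 0 of the 3 higher ones held TGANTCA, the palindromic site of AP-1 factors, which is given in capitals. The share with this site was 19.2% over the 125 non-promoter peaks of the set and 17% over all non-promoter peaks. The share among all peaks called lower in the table was not counted. The 4 of 8, 1 of the 8 being a promoter peak, are therefore not read as particular to these genes. The second Ctsz peak holds a further copy outside the bases shown. The peak upstream of Scarb2, the membrane protein that carries glucocerebrosidase to lysosomes, held none.
Ctsd, upstream (chr7:142393264-142393463): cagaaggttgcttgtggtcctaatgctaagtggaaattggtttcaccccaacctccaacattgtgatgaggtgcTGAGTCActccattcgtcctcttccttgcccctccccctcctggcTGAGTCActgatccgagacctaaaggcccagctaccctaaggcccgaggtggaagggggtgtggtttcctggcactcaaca
Ctsz, upstream (chr2:174441876-174442075): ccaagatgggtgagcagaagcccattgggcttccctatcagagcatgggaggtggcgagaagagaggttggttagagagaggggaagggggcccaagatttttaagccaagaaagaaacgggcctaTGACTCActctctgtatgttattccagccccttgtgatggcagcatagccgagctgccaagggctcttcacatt
Ctsz, farther upstream (chr2:174442451-174442650): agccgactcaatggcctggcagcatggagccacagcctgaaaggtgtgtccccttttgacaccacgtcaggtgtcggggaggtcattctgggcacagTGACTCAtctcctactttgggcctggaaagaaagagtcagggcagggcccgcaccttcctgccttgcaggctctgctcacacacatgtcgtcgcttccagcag
Ctsb, intron (chr14:63132373-63132572): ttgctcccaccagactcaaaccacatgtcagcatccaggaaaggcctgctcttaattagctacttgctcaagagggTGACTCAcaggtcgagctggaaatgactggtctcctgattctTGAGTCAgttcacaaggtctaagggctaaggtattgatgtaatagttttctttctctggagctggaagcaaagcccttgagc
Scarb2, upstream (chr5:92511371-92511570): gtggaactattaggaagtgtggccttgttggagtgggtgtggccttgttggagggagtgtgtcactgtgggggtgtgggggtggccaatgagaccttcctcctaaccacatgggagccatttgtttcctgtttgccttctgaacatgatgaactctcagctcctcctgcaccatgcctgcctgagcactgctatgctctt

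Among the 7 cathepsins of the set, the upstream peak of Ctsd, the lysosomal aspartic protease, had the largest decrease (chr7:142393205-142393514, outside the gene). It had 2.93 and 3.71 CPM in spleen control and 1.52, 1.58, 0.955 and 1.13 CPM in spleen deficient libraries, and in lung 4.58 and 7.43 CPM against 0.665 and 3.00 CPM. Deficient libraries were below controls within each tissue, with a log2 fold change of -1.53 ± 0.30 averaged (adjusted p = 0.0016) that held without each library, and of -1.78 ± 0.47 in lung (adjusted p = 0.027). The lung call was lost without lung control replicate 2 (adjusted p = 0.26), lung deficient replicate 1 (0.29) or spleen control replicate 2 (0.052). In spleen the same peak had -1.36 ± 0.38 (adjusted p = 0.076).

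Ctsz, a cysteine carboxypeptidase, had 2 neighbouring upstream peaks that were lower. The nearer (chr2:174441530-174442075) had 12.1 and 15.3 CPM in spleen control against 7.27 to 9.80 CPM in the 4 deficient libraries, and 12 and 11.9 CPM in lung control against 6.99 and 4.07 CPM. It was called on average (-0.82 ± 0.16, adjusted p = 0.0021, held without each library) and in lung (-1.09 ± 0.26, adjusted p = 0.012), and the lung call was lost without lung control replicate 2 (0.071) or lung deficient replicate 2 (0.18). The farther (chr2:174442381-174442812) had 22.7 and 24.9 CPM in spleen control, 10.8 to 23.6 CPM in spleen deficient, 17.4 and 30.5 CPM in lung control and 14.1 and 12.7 CPM in lung deficient libraries, with groups that overlapped in spleen. Its average of -0.63 ± 0.17 (adjusted p = 0.017) was lost without lung control replicate 2 (-0.47, adjusted p = 0.058).

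Ctsb, an abundant cysteine protease, had 2 intronic peaks that were called. At chr14:63132175-63132733, lung control libraries had 7.20 and 6.63 CPM and lung deficient libraries 2.91 and 2.79 CPM (-1.27 ± 0.28, adjusted p = 0.0087). Spleen control had 5.95 and 5.22 CPM against 5.46 to 7.04 CPM in deficient libraries (0.15 ± 0.22, adjusted p = 0.84), so that the 2 tissues differed by -1.42 on the log2 scale, which did not pass the test of the difference (adjusted p = 0.36). The lung call was lost without lung deficient replicate 1 (adjusted p = 0.081) or replicate 2 (0.071). At chr14:63123783-63124400, which fell outside the naming rule and was added after its values were seen, spleen deficient libraries had 4.30 to 6.06 CPM against 7.93 and 8.17 CPM in spleen control, and the average was -0.70 ± 0.19 (adjusted p = 0.020). That average was lost without spleen control replicate 2 (0.056), lung control replicate 2 (0.058) or lung deficient replicate 1 (0.057).

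Membrane proteins gave calls in both directions. The Scarb2 peak upstream of the gene (chr5:92511283-92511658) had 3.71 and 6.04 CPM in spleen control and 2.07, 1.45, 2.08 and 1.70 CPM in spleen deficient libraries, and in lung 6.54 and 6.77 CPM against 2.99 and 2.79 CPM. Deficient libraries lay below controls in both tissues, and it was called on average (-1.31 ± 0.21, adjusted p = 0.00023, held without each library), in spleen (-1.39 ± 0.27, adjusted p = 0.0078) and in lung (-1.20 ± 0.33, adjusted p = 0.036). The spleen call was lost without spleen control replicate 2 (adjusted p = 0.21), and the lung call without spleen control replicate 2 (0.061) or without any 1 of the 4 lung libraries (0.068 to 0.17). Of its bases, 79.8% are soft-masked as repeats in the assembly, against a median of 9.95% over all peaks, and the part of read mapping in the result was not tested.

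An intronic Scarb2 peak (chr5:92488902-92489286) went the other way. It had 4.22 and 1.79 CPM in spleen control, 3.76 to 6.73 CPM in spleen deficient, 3.16 and 3.75 CPM in lung control and 10.5 and 8.69 CPM in lung deficient libraries. The groups overlapped in spleen and not in lung, and it was called on average (1.01 ± 0.23, adjusted p = 0.0072, held without each library) and in lung (1.46 ± 0.34, adjusted p = 0.013, lost without lung control replicate 2 at 0.059 or lung deficient replicate 1 at 0.088). The leading Scarb2 promoter peak, between these 2 in the gene's direction, had 0.06 ± 0.05.

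The intronic peak of Cd63 (chr10:128902404-128902834), a tetraspanin of lysosomes and secretory vesicles, had 4.05 and 5.22 CPM in spleen control against 2.27 to 3.03 CPM, and 3.71 and 4.56 CPM in lung control against 1.16 and 2.57 CPM. Its average was -0.90 ± 0.23 (adjusted p = 0.015), which was lost without spleen control replicate 2 (0.065). Upstream of Tfe3, the peak at chrX:7758196-7758405 had 1.64 and 2.47 CPM in spleen control, 2.42 to 5.39 CPM in spleen deficient, 9.38 and 4.86 CPM in lung control and 11.6 and 12 CPM in lung deficient libraries. Its average of 0.82 ± 0.23 (adjusted p = 0.023) was lost without spleen control replicate 1 (0.096) or lung control replicate 2 (0.089).

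**Figure D2:**
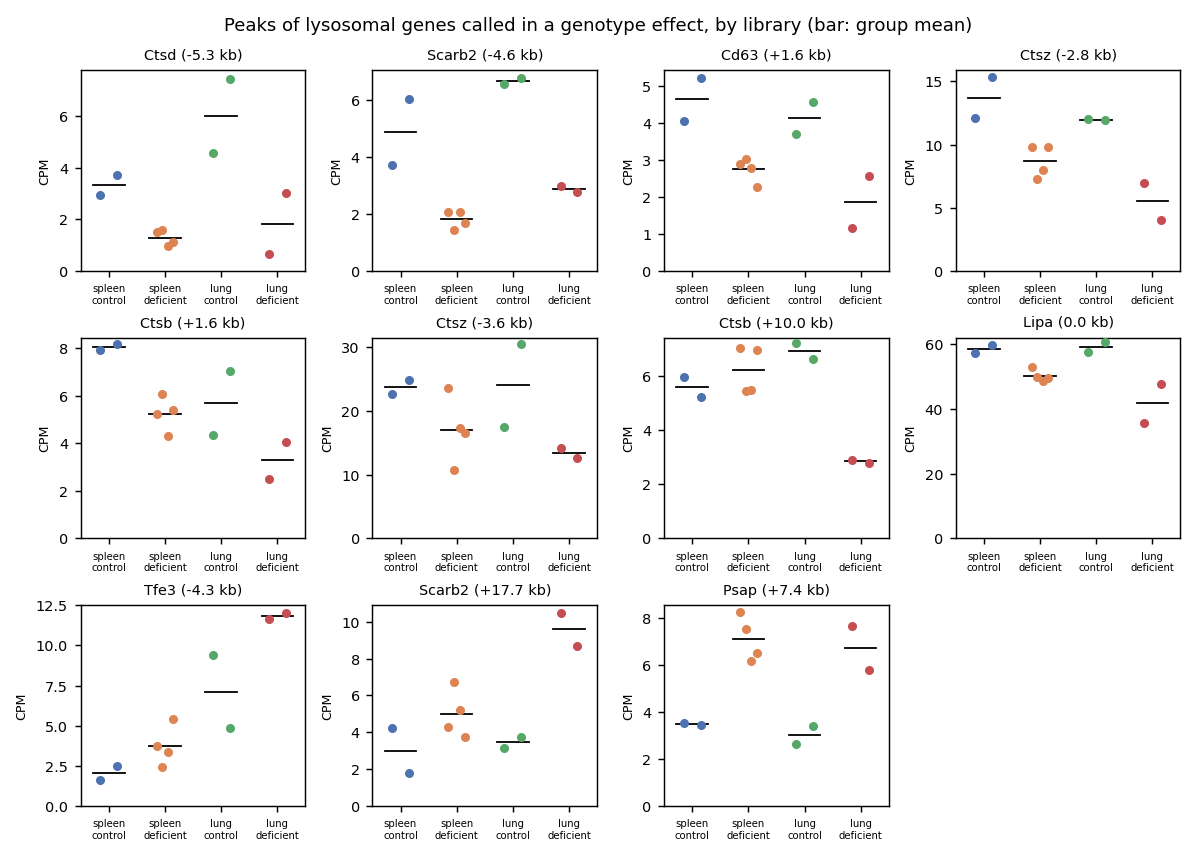
CPM in each library (points) and group mean (bar) at the 11 peaks called in a genotype effect, ordered from the lowest to the highest average fold change; titles give the distance of the peak centre from the gene start in the gene's direction. The Ctsd, nearer Ctsz and upstream Scarb2 peaks have lower deficient than control libraries within each tissue, the farther Ctsz peak overlaps in spleen, and the Psap peak has all 6 deficient libraries above all 4 controls.

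By tissue, calls were fewer in spleen than in lung over the whole table, and the set had few in either. In spleen 1 peak was higher (background 0.441%), 1 was lower (background 1.02%) and 1 of the 66 promoter peaks was called (background 0.683%). In lung 2 were higher (background 1.22%), 5 were lower (background 3.74%) and 2 of the 66 promoter peaks were called (background 3.13%). Fitted to the 4 lung libraries alone, the intronic Scarb2 peak was the 1 peak called of these 7, and the other 6 had an adjusted p of 0.088 to 0.14. The genotype effect differed between the tissues at 0 peaks of the set and 0% of the table, both with edgeR and, for the set, with DESeq2; 9 of 190 peaks had an unadjusted p below 0.05 in edgeR.

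Markers of other cells, in 5 lists, were summed in each library. Groups this small can fail to overlap by chance, and how often sums of other promoter peaks did so was not counted. Of 6 myeloid markers, Spi1, Itgam and Cd14 had a promoter peak and Lyz2, Csf1r and Adgre1 had none. The summed level at the 3 was 21.8 to 24.8 CPM in spleen control and 16 to 21.4 CPM in spleen deficient libraries, and 26.4 to 28.6 CPM in lung control and 16.8 to 18.7 CPM in lung deficient libraries, with no overlap in either tissue. Markers of CD8 T and NK cells, 3 of 4 with a promoter peak, had 24.6 to 28.4 CPM in lung control and 33.8 to 40.1 CPM in lung deficient libraries, and overlapped in spleen. Lung epithelial markers, 3 of 4 with a promoter peak, had 34.0 to 34.3 CPM in spleen control and 28.0 to 32.2 CPM in spleen deficient libraries, without overlap, and overlapped in lung. Endothelial markers, 3 of 4 with a promoter peak, and B cell markers, 1 of 4 with one, overlapped between genotypes in spleen and in lung (29.4 to 38.9 CPM and 13.0 to 19.6 CPM over all libraries). Of single myeloid markers in spleen, Spi1 did not overlap between genotypes, while Itgam and Cd14 overlapped. Cd8a had 1.53 and 1.91 CPM in lung control and 1.66 and 9.65 CPM in lung deficient libraries, and so overlapped. Cd8b1 and Eomes did not overlap between genotypes in lung. The part of other cells in the lower cathepsin and Scarb2 peaks was not tested. In bulk libraries, fewer cells with an open region and less accessibility per cell cannot be told apart.

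**Figure D3:**
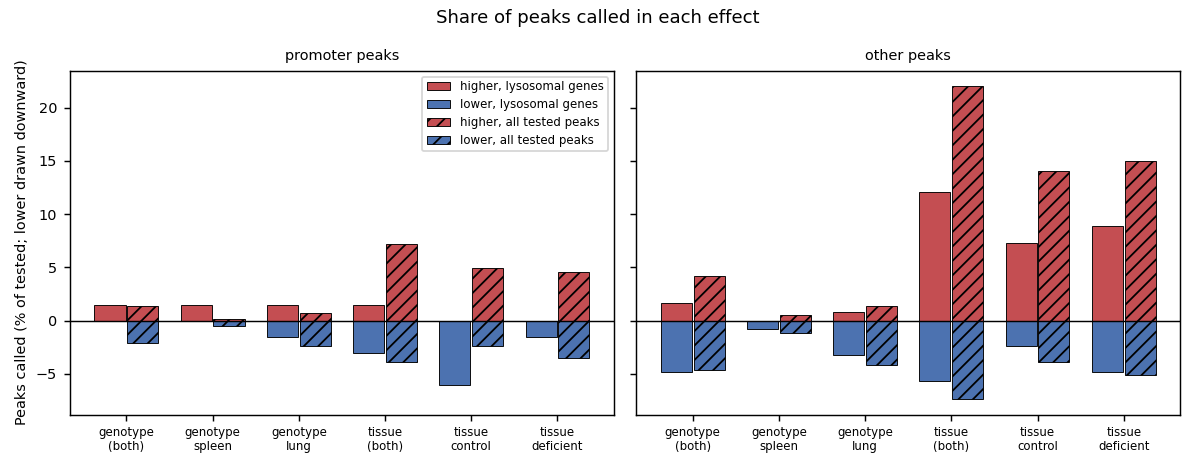
Percent of tested peaks called higher (upward) or lower (downward) in each effect, for the lysosomal genes (plain bars; 66 promoter and 124 other peaks) and for all tested peaks (hatched bars). Genotype calls at promoter peaks of the set are 1 or 2 peaks per effect, and the set's share of peaks higher in lung is below that of all peaks.

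The second comparison set lung against spleen. Averaged over genotypes, 16 of 190 peaks were higher in lung (background 18.4%) and 9 were lower (background 6.51%), with 3 of 66 promoter peaks called (background 11.1%). Scaling to library size alone gave 13 higher and 13 lower. In control cells 9 were higher (background 11.8%) and 7 were lower (background 3.53%), with 4 promoter peaks called (background 7.25%). In deficient cells 11 were higher (background 12.5%) and 7 were lower (background 4.72%), with 1 promoter peak called (background 8.04%).

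At the leading promoter peaks, lung was mostly slightly lower than spleen. The median log2 fold change was -0.15, with 30 of 38 below 0, where 38.9% of all promoter peaks were above 0. Over all 66 promoter peaks of the set it was -0.12, against -0.07 for all promoter peaks of the table, and 0 of the leading peaks were called in the average, where 15 had an unadjusted p below 0.05. Lamp1 was called lower in that average with DESeq2 (-0.52), median-of-ratios (-0.52), library-size scaling (-0.56), halved counts (-0.54) and no count filter (-0.56), and Mcoln1 with the last 3 of these (-0.53, -0.51 and -0.53). All 7 V1 and all 6 V0 genes were below 0 in the main fit and under the 3 other scalings. The medians were -0.16 for V1 and -0.09 for V0 in the main fit, and -0.22 and -0.15 with scaling to library size alone. Among the pump genes Atp6v1h, the regulatory subunit of V1, had -0.30 ± 0.09 (adjusted p = 0.0098). Atp6v0a1 had -0.33 ± 0.12 (adjusted p = 0.045) and Atp6v1c1 had -0.19 ± 0.07 (adjusted p = 0.047). All of these were under the fold limit.

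Mcoln1, the calcium channel of the lysosomal membrane, had 22.9 and 24.0 CPM in spleen control and 16.1 and 15.8 CPM in lung control libraries at its leading peak. All 4 lung libraries lay below all 6 spleen libraries, with -0.46 ± 0.12 averaged (adjusted p = 0.0033, under the fold limit) and -0.56 ± 0.17 in control cells (adjusted p = 0.027), a call lost without spleen control replicate 1 (adjusted p = 0.074) or replicate 2 (0.076). Lamp1, the most abundant glycoprotein of the lysosomal membrane, had 13.5 to 16.8 CPM in spleen deficient and 11.8 and 8.79 CPM in lung deficient libraries. It was called lower in deficient cells (-0.57 ± 0.18, adjusted p = 0.024), which was lost without lung deficient replicate 2 (-0.33, adjusted p = 0.36) or spleen control replicate 2 (-0.52, adjusted p = 0.053). Gusb, which cleaves glucuronic acid from glycosaminoglycans, had a leading peak that lay above spleen in all 4 lung libraries (0.29 ± 0.09, adjusted p = 0.013, under the fold limit), as did Scarb2 (0.18 ± 0.05, adjusted p = 0.012, under the fold limit). At Npc1, as at Mcoln1, all 4 lung libraries lay below spleen (-0.17 ± 0.06, adjusted p = 0.033, under the fold limit). These 4 were the leading peaks whose tissues did not overlap, and none of them was called in the average. The share of all promoter peaks without such overlap was not counted.

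The strongest lung-high peaks lay outside promoters. The Tfe3 upstream peak described above, with 1.64 to 5.39 CPM in spleen and 4.86 to 12 CPM in lung, had 1.72 ± 0.22 (adjusted p = 1.3e-06). A peak 6.9 kb beyond the start of Atp6v1f, a rotor subunit of V1, had 2.84 to 5.67 CPM in spleen and 7.51 to 11.4 CPM in lung (1.34 ± 0.17, adjusted p = 1.9e-06) and lay nearest to Atp6v1fnb. A peak over an untranslated exon of Lipa had 0.414 to 0.993 CPM in spleen and 1.62 to 3.93 CPM in lung (2.00 ± 0.35, adjusted p = 9.6e-05). Intronic peaks of Ctss (1.71 ± 0.32, adjusted p = 0.00022) and Mitf (2.22 ± 0.42, adjusted p = 0.00023) completed the 5 with the smallest p. At the Atp6v1f, Lipa, Ctss and Mitf peaks, all 4 lung libraries lay above all 6 spleen libraries.

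The lung-low peaks with the smallest p, at Ctss and Mcoln1, held few counts in lung. A peak upstream of Ctss had 36, 44, 16, 26, 44 and 22 counts in the 6 spleen libraries and 0, 2, 4 and 2 counts in the 4 lung libraries (-3.27 ± 0.53 averaged, adjusted p = 4.1e-05). A peak beyond Mcoln1, nearest to Pnpla6, had 14 to 46 counts in spleen and 2, 0, 0 and 2 counts in lung (-3.92 ± 0.65, adjusted p = 5.3e-05). At such counts a fitted fold depends on the prior count of the fit. In exonic sequence of Atp6v0a2, a V0 subunit, a peak had 3.10 to 4.73 CPM in spleen and 0.998 to 1.96 CPM in lung (-1.31 ± 0.26, adjusted p = 0.00036). An intronic promoter peak of Ctsd had 2.21 to 3.97 CPM in spleen and 0.436 to 2.16 CPM in lung, with lung below spleen throughout (-1.08 ± 0.30, adjusted p = 0.0075), and a peak at the end of Atp6v0a1, nearest to Naglu, had -0.66 ± 0.16 (adjusted p = 0.0025).

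**Figure D4:**
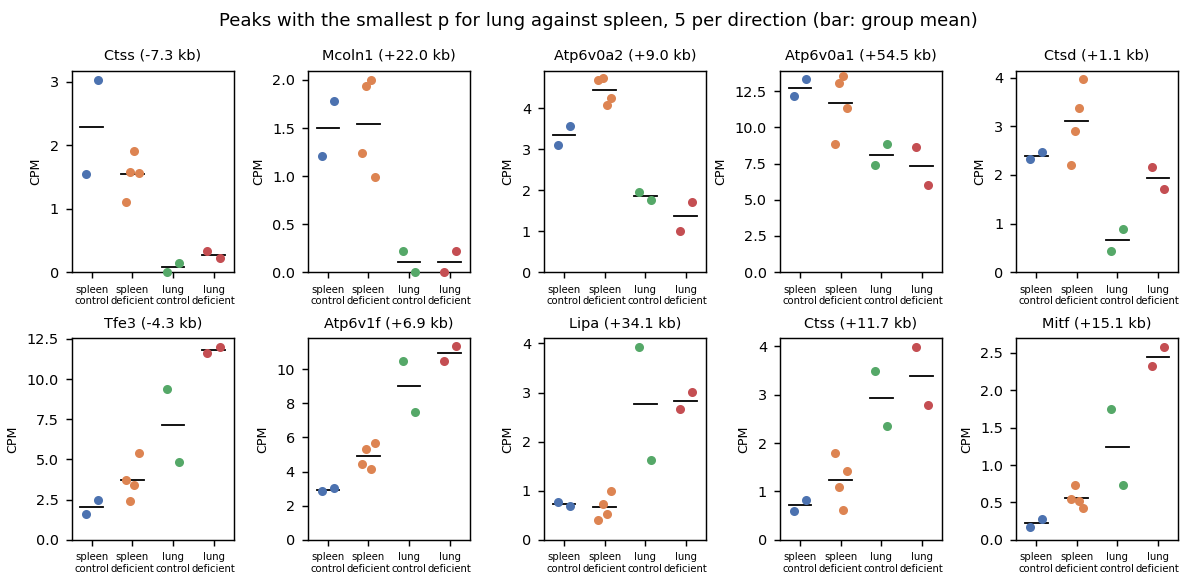
CPM in each library (points) and group mean (bar) at the 5 peaks with the smallest p in each direction for lung minus spleen averaged over genotypes; titles give the distance of the peak centre from the gene start. The lung-low Ctss and Mcoln1 peaks are at or near 0 in lung, and the lung-high peaks of Lipa, Ctss and Mitf stay below 4 CPM.

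All 10 of these averages were called without each library in turn. Within a genotype the calls were less stable. Of the 12 peaks followed for the tissue effect in control cells, 3 held without each library, 7 were lost without spleen control replicate 1, 7 without lung control replicate 1, 3 without spleen control replicate 2 and 1 without lung control replicate 2 (adjusted p = 0.051 to 0.34 where lost). Of the 12 followed in deficient cells, 6 held, and 4 were lost without lung deficient replicate 2, 3 without lung deficient replicate 1, 2 without spleen control replicate 2 and 1 each without spleen deficient replicate 2 or replicate 3 (0.053 to 0.38). The epithelial markers summed to 28.0 to 34.3 CPM in spleen and 25.7 to 32.2 CPM in lung. Among them Sftpc had no promoter peak, and Nkx2-1 had 0.347 to 1.1 CPM in spleen and 1.33 to 2.15 CPM in lung. Epcam had 19.4 to 24.0 CPM in spleen and 17.2 to 23.6 CPM in lung. Cdh1 had 6.79 to 9.57 CPM in spleen and 6.01 to 6.92 CPM in lung. Endothelial markers summed to 30.0 to 36.1 CPM in spleen and 29.4 to 38.9 CPM in lung, with no promoter peak for Tek. Cdh5 had 0.174 to 1.03 CPM in spleen and 1.18 to 3.43 CPM in lung. Kdr had 4.31 to 6.24 CPM in spleen and 2.84 to 6.92 CPM in lung. Pecam1 had 24.65 to 29.15 CPM in spleen and 24.62 to 30.84 CPM in lung. Myeloid markers summed to 21.8 to 24.8 CPM in spleen control and 26.4 to 28.6 CPM in lung control libraries. In deficient cells the myeloid sums overlapped between tissues. B cell sums and CD8 and NK sums overlapped between tissues in each genotype. The part of other cells in the tissue differences was not tested.

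The lung-high peaks shared a width. Of the 16 called higher in lung, 13 were at most 220 bases wide (81.2%), against 15.7% of all 191 peaks of the set, and 0 of the 9 lower peaks were. Over the whole table the same held, with 73.6% of the peaks called higher in lung at or below that width and 23.6% of all peaks. Put the other way, 13 of 29 narrow tested peaks of the set were called higher in lung (44.8%, against 57.9% of all narrow peaks), while 3 of the 161 wider ones were (1.86%, against 6.34% of all wider peaks). The 3 wider ones were an intronic peak of Atp6v1e1, the intronic Scarb2 peak and a peak nearest to Hsd11b2 in the Atp6v0d1 window (0.55 ± 0.13), which fell under the fold limit without any of 4 libraries (0.39 without lung control replicate 2, 0.42 without spleen control replicate 1, 0.48 without spleen deficient replicate 1 and 0.47 without spleen deficient replicate 3) and with library-size scaling (0.49). The width limit was chosen after the called peaks were seen, and how peak calling bears on it was not tested. Of the genotype averages, 1 of the 3 higher peaks, that of Tfe3, and 0 of the 6 lower ones were narrow.

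**Figure D5:**
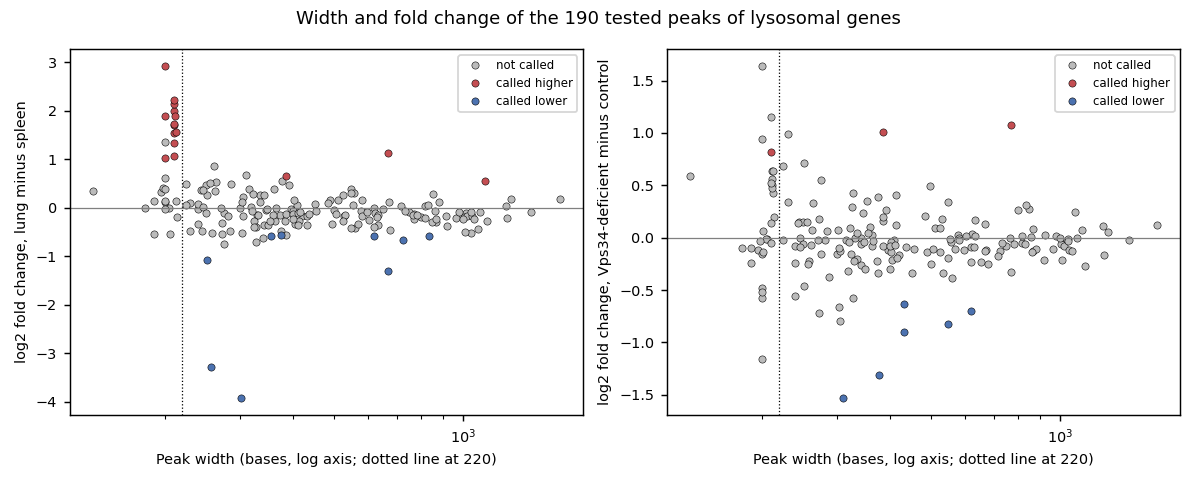
Peak width (log axis) against log2 fold change for lung minus spleen (left) and Vps34-deficient minus control (right), averaged over the other factor, for the 190 tested peaks of the lysosomal genes. Of the 16 lung-high calls 13 sit at or left of the dotted line at 220 bases, while the 9 lung-low calls and the 6 peaks lower in deficient cells are all wider.

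A wider list of 67 further genes of the same pathway, made of other hydrolases, membrane transporters, sorting receptors, V-ATPase subunits and lysosomal mTORC1 regulators, had 382 peaks, of which 380 were tested. In the genotype average 8 were higher (background 3.52%) and 27 were lower (background 4.06%). Of the 27, 18 lay at 8 of the 26 further hydrolases and cofactors, and 12 of those 18 at the 2 genes Ctsh (5 peaks) and Glb1 (7 peaks, 4 of them nearest to the chemokine receptor gene Ccr4). Their 42 V-ATPase peaks had 0 higher and 3 lower. In spleen 1 was higher (background 0.441%) and 8 lower (background 1.02%), and in lung 4 were higher (background 1.22%) and 21 lower (background 3.74%). Lung against spleen gave 47 higher (background 18.4%) and 23 lower (background 6.51%). The 2 gene lists share 6 peaks, among them 2 of those 23, the lung-low peaks described above upstream of Ctss and at the end of Atp6v0a1. The median log2 fold change of these peaks was -0.05 for genotype and -0.05 for tissue, beside -0.04 and -0.09 for the 190 peaks of the set and 0.04 and -0.01 for all tested peaks.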

How the data were processed

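ATAC-seq libraries of sorted Tregs were analysed from 1 table of whole-number read counts per peak, not normalized, as the authors deposited it. The authors trimmed and aligned paired reads, removed duplicates, allowed for the Tn5 shift, kept nucleosome-free fragments, called peaks per sample with MACS2 and merged them. Their processing notes name MACS2 2.1.0.20150603, Picard 1.65 and cutadapt 1.9 with GRCm38, while the methods name an older assembly. Of 22028 coding starts 51.1% lay in a peak on GRCm38 (GENCODE vM21), against 1.98% to 2.81% after shifts. Between 91.5% and 96.5% of counts were even, as when both mates of a fragment are counted, so counting error is larger than the counts imply.

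The 38 genes, the wider gene list, motifs and markers were chosen with earlier results of these data known. edgeR 4.0.16 (R 4.3.3; filterByExpr, TMM, quasi-likelihood F-test) was fitted to the 97109 peaks that passed, additive for averages and with 4 group means otherwise, with Benjamini-Hochberg adjustment over them; calls needed an adjusted p below 0.05 and a log2 fold change beyond 0.5. SEs were derived from F. DESeq2 1.42.0, other scalings, filters and windows, halved counts, a chromosome Y covariate, replicate blocks and leaving out each library were alternatives. The text names each gene's leading promoter peak and, per effect and direction, at most 5 called peaks ranked by p. No libraries were duplicates: within groups, chi-square divided by its degrees of freedom was 2.77 to 5.42. The fits were tested on simulated data.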

Additional observations from a re-analysis of the deposited data

Results flagged for a closer look

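At 3 leading promoter peaks 1 of the 4 spleen deficient libraries stood apart, with the gap to its nearest neighbour taking most of the group's range: the lowest library at Cd63 (0.838 of the range) and at Atp6v1a (0.883), and the highest at Ctss (0.948, 5.11 CPM against 3.21 to 3.31 CPM). Chance gives such a library in about 1 in 20 groups.

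At 3 peaks every deficient library moved one way against the controls in spleen and the other way in lung. The difference of the genotype effects, lung minus spleen, was -0.89 at the Atp6v0a2 exonic peak, -0.69 at the peak nearest to Hsd11b2 in the Atp6v0d1 window and 0.84 at the peak upstream of Gla, next to Hnrnph2. None passed the edgeR test of the difference (adjusted p = 0.74, 0.46 and 0.59). Groups this small can separate in this way by chance. The share of all peaks that did so was not counted, so the 3 are not read as more than the background.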

How the results depend on the processing

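Counts of called peaks, higher then lower, were 3 and 6 for the genotype average, 1 and 1 in spleen, 2 and 5 in lung, 16 and 9 for the tissue average, 9 and 7 in control and 11 and 7 in deficient cells. Without the fold limit the genotype average gave 10 lower and the tissue average 19 lower. Halved counts gave 3 lower in spleen, spleen libraries alone 4 lower, and lung libraries alone 1 higher and 0 lower in lung. A mean count of at least 50 gave 3 lower in lung, 7 and 3 for the tissue average, 4 and 4 in control, and 5 and 1 in deficient cells. Gene bodies alone gave 2 lower for the genotype average, 0 lower in spleen, 2 lower in lung, 9 and 4 for the tissue average, 5 and 3 in control, and 6 and 4 in deficient cells. A 25 kb window gave 6 higher for the genotype average, 29 and 18 for the tissue average, 18 and 11 in control, and 20 and 11 in deficient cells. Keeping peaks nearest to their own gene gave 4 lower for tissue in deficient cells. Peaks wider than 220 bases, an alternative added after the data were seen, gave 3 higher for the tissue average, 2 in control and 2 in deficient cells. Deviations of same-numbered libraries had correlations of -0.098 to 0.063. With so few libraries per group, these cannot show whether libraries share a mouse. Chromosome Y counts of same-numbered spleen and lung libraries were both high or both low. They were 56.9 and 67.6 CPM for control 1 and 7.03 and 12.8 CPM for control 2. For deficient 1 they were 9.88 and 21.4 CPM, and for deficient 2 they were 64.8 and 63.4 CPM. The main fits took no pairs, and pairing of the tissues by mouse was not tested. A replicate block gave 3 lower for the genotype average, 0 and 0 in spleen and 1 higher in lung. For tissue it gave 4 lower in control, and 4 and 3 in deficient cells.

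Leaving out each library gave 2 to 4 higher and 4 to 6 lower for the genotype average, 0 to 1 and 0 to 3 in spleen, 0 to 4 and 1 to 6 in lung, 13 to 17 and 6 to 14 for the tissue average, 2 to 11 and 3 to 9 in control, and 6 to 14 and 3 to 10 in deficient cells. Without lung deficient replicate 2 the tissue effect in deficient cells at the Gla upstream peak changed sign, to 0.17 (lowest value -0.37, without lung deficient replicate 1). The cause of these changes was not tested, beyond fewer peaks or libraries being counted. Low counts limit the lung-low peaks upstream of Ctss and beyond Mcoln1.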
